A study of Rattus norvegicus with 12 samples.

Results

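The heterotrimeric G protein subunits and the regulators of G protein signalling (RGS proteins) were followed in rat (Rattus norvegicus) hippocampus, a brain region on which memory for places and events depends. Members were the rows whose gene symbol was that of a numbered Rgs gene, a G protein alpha subunit, a beta subunit (Gnb1 to Gnb5) or a gamma subunit (Gng and Gngt), and none was chosen by its value. They were 53 of the 23760 rows, with 52 symbols, since Gnas had 2 rows. The 53 rows were 17 for alpha subunits, 5 for beta subunits, 12 for gamma subunits and 19 for RGS proteins. Of these, 51 passed the filter on low values, which was a normalised read count of at least 1 in at least 6 libraries, and were tested among 19050 genes.

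Bulk RNA was sequenced from 6 samples labelled AS3h and 6 labelled NC. The study concerns cognitive impairment after long underwater work, and the comparison asks how the hippocampal transcriptome of the AS3h group differs from that of the NC group. The labels expand neither abbreviation and give no strain, sex, age, treatment detail or animal for any sample, so each p-value reflects how far these samples spread, which may be technical. Reads assigned to genes ran from 29615243 to 36947557 in AS3h and from 30128112 to 38106489 in NC, a difference in means that an exact permutation test did not separate (two-sided p = 0.147). The hippocampal neuron markers Wfs1 and Neurod6 averaged 13011 and 8159 normalised reads in AS3h and 14812.5 and 8809 in NC, and 0 of 9 such markers passed under limma over all genes, 3 having an unadjusted p under 0.05. Choroid plexus transcripts varied between libraries: the summed level of 9 choroid plexus markers was 351 to 69840 in AS3h, highest in AS3h 5, and 227 to 1272 in NC. Endothelial markers summed to lower levels in all 6 AS3h libraries than in any NC library, and 2 of the 4 tested fell. These were Slco1a4, which averaged 1341 in AS3h and 2631 in NC, and Flt1, at 1342 in AS3h and 1629 in NC. Of the 4, only Slco1a4 had groups that did not overlap, at 1072 to 1531 in AS3h and 2342 to 3490 in NC. Cdh5 went the other way without passing (log2 fold change 0.27, limma adjusted p = 0.27). Cldn5 had 0 reads in 4 AS3h and 2 NC libraries. A change in endothelial content was not tested. Values are normalised read counts, and a log2 fold change is AS3h over NC with its standard error, on a scale of log2(count + 1) that understates the change of genes with few reads.

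G proteins carry the signal of seven-transmembrane receptors into the cell. An activated receptor makes the alpha subunit exchange GDP for GTP, and the alpha subunit and the beta-gamma pair then act on enzymes and channels until the alpha subunit hydrolyses its GTP. RGS proteins speed that hydrolysis and so shorten the signal. In hippocampal neurons these pathways carry the effects of acetylcholine, monoamines, adenosine, GABA and neuropeptides on excitability and transmitter release.

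In AS3h hippocampus the RGS genes Rgs13 and Rgs20 were lower and the RGS gene Rgs16 and the beta subunit gene Gnb3 were higher. The other 47 members tested did not pass an adjusted p of 0.05 (limma, Benjamini-Hochberg over all genes tested). The 4 members called were 7.84% of the 51 tested, beside 9.26% of all genes tested, so the share of members called was not above the background. By direction, 2 members rose (5.04% of all genes tested did) and 2 fell (4.22% of all genes tested did). At an unadjusted p under 0.05 there were 15 members (29.4%, beside 24.9% of all genes). The AS3h and NC values did not overlap for 3 members (5.88%), near the 5.05% of all genes tested. The median log2 fold change was -0.06 over the members and -0.00428 over all genes, and the median absolute log2 fold change was 0.13 over the members and 0.16 over all genes. The same 4 members passed in each of the 12 fits that left out 1 library and in the fit without AS3h 4 and AS3h 5, although the count over all genes fell to 1030 of 19050 without NC 2, 1109 without AS3h 4 and 860 without AS3h 4 and AS3h 5, against 1764 with every library. When marker levels for blood and for choroid plexus entered the fit as covariates, 0 of the 51 members and 25 of the 19050 genes passed (limma), and the values of the 4 members under that fit stand beside each. That outcome depended on which markers were entered: in fits chosen after seeing the data, the choroid plexus markers alone left 4 members (the same 4) and 1140 genes past the threshold, the blood markers alone left 1 member (Rgs13) and 469 genes, and the haemoglobin rows with Ttr left 1 member (Rgs13) and 191 genes.

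**Figure D1:**
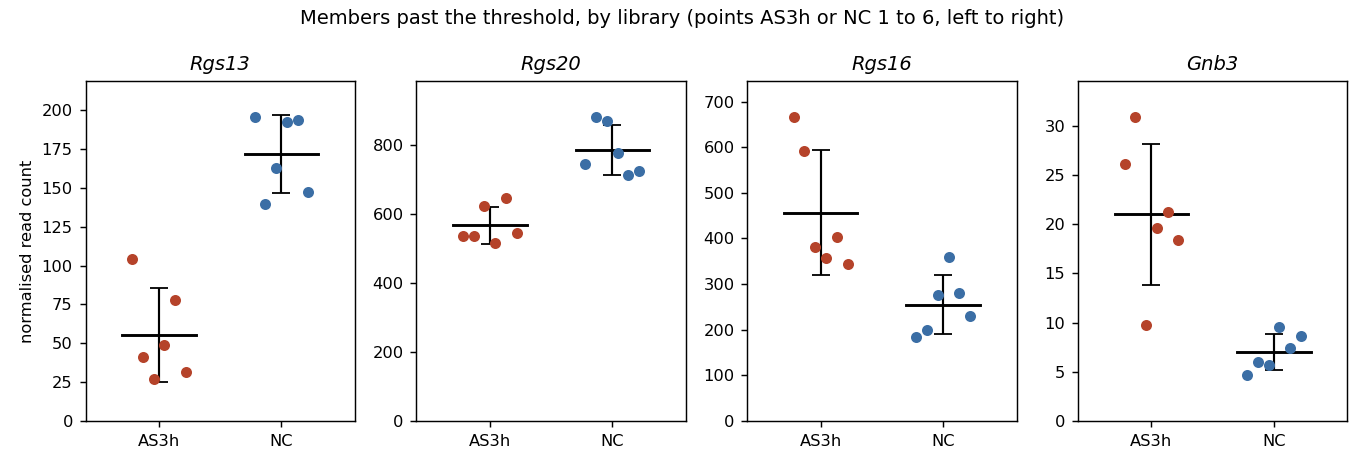
Normalised read counts (y axis, linear from 0) of Rgs13, Rgs20, Rgs16 and Gnb3 in the 6 AS3h libraries (red, left) and the 6 NC libraries (blue, right); points run from library 1 to 6, the line is the mean and the bar the SD. The groups do not overlap for Rgs13, Rgs20 and Gnb3, and for Rgs16 AS3h 4 and AS3h 6 lie below NC 4.

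**Figure D2:**
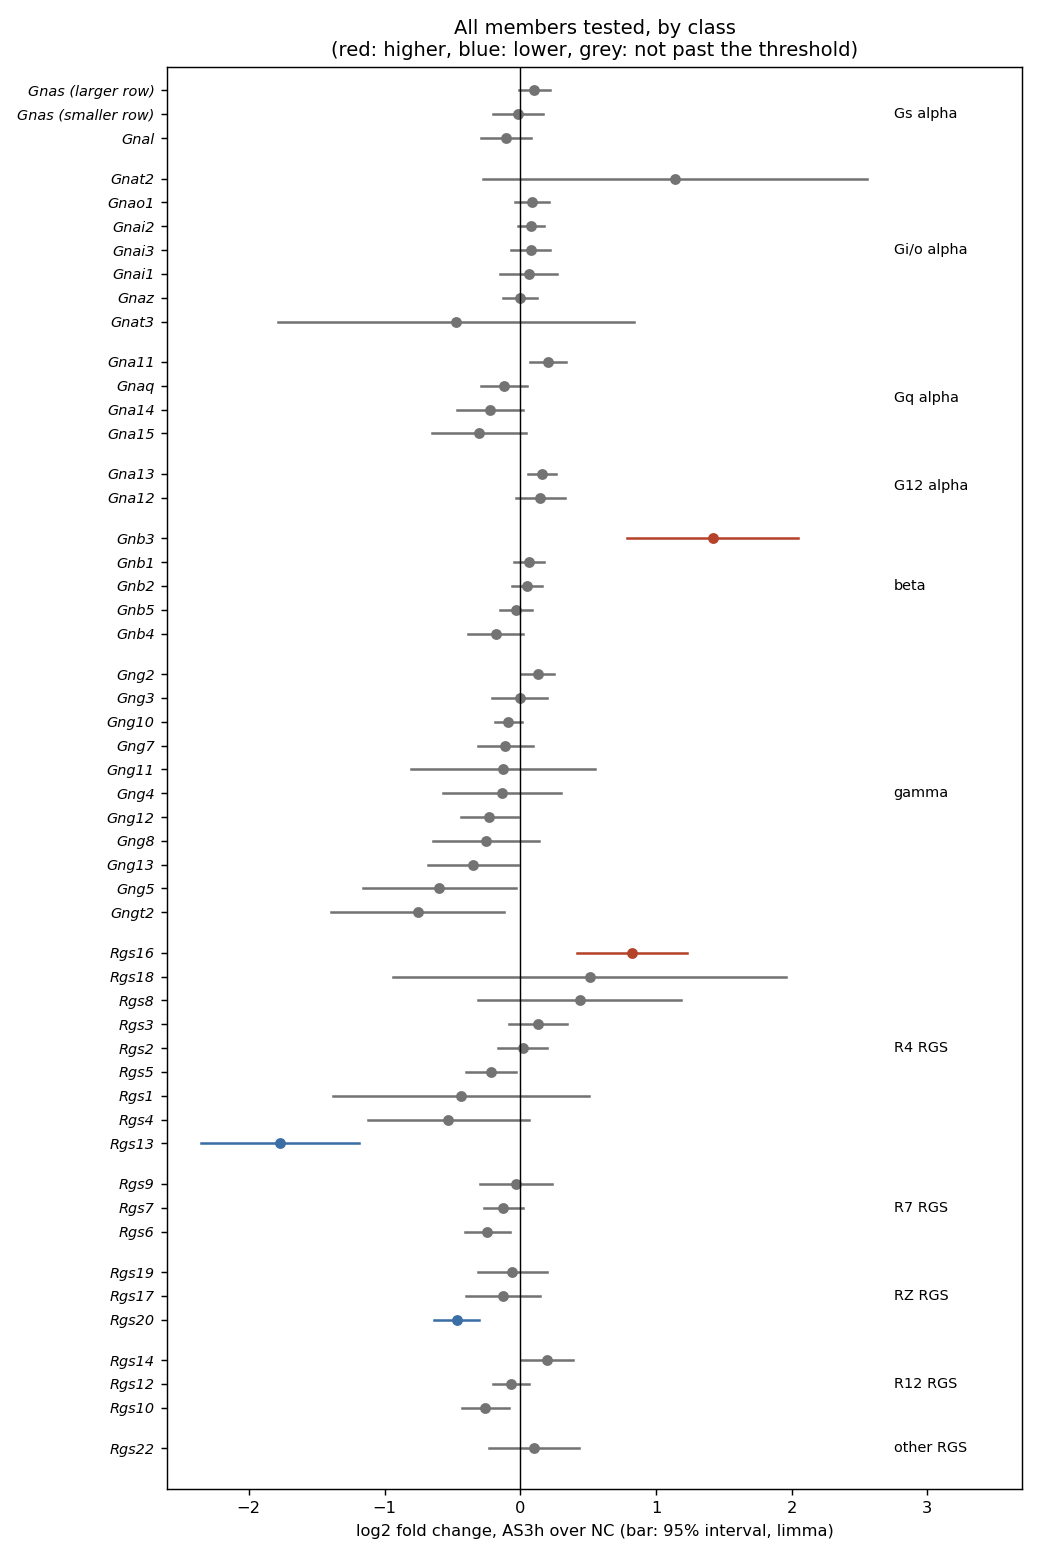
Log2 fold change of each of the 51 members tested, AS3h over NC (x axis), with its 95% interval from limma, one row a gene, grouped by class. Rgs13 and Rgs20 (blue) lie below 0, Gnb3 and Rgs16 (red) above it, and the 47 members in grey did not pass the threshold.

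The promoter sequences of the 2 changed members with a RefSeq promoter entry, Rgs13 and Rgs16, are shown because these genes moved in opposite directions although both belong to the R4 class of small RGS proteins. Each runs from 250 bases before the annotated start to 50 bases after it, in the strand of the gene, from RefSeq on build GRCr8. The Rgs13 stretch is chr13:58505873-58506172 on the minus strand and the Rgs16 stretch is chr13:68437870-68438169 on the plus strand; the deposited tables hold no coordinates. Capitals mark matches, on either strand, to the CCAAT box (CCAAT) and to the GC box (GGGCGG).
Rgs13 promoter: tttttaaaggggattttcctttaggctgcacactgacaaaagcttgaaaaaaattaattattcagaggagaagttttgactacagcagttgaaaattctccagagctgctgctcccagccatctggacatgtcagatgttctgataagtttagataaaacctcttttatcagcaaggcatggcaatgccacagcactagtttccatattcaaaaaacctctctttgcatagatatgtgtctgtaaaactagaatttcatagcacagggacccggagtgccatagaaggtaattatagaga
Rgs16 promoter: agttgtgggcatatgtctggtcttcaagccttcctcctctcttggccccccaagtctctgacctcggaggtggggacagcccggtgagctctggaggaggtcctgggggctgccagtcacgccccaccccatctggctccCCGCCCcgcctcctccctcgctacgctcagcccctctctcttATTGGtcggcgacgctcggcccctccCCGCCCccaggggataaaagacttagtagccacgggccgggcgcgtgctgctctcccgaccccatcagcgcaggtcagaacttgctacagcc
The Rgs16 stretch was 66.3% G and C with 18 CpG dinucleotides, and the Rgs13 stretch was 38.7% G and C with 1, beside medians of 51.7% and 7 over 33469 promoters of the same length. The Rgs16 stretch held 1 CCAAT box, found in 37.5% of all promoters, and 2 GC boxes, found in 33.1%, and the Rgs13 stretch held 0 of either. Matches to the E-box (CACGTG), the AP-1 site (TGANTCA), the cAMP response element (TGACGTCA) and the glucocorticoid response element numbered 0 in both stretches. Those 4 motifs were in 6.42%, 7.33%, 1.83% and 0.439% of all promoters.

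Among alpha subunits, the GTP-binding switches, none of 16 tested passed under limma, and 2 had an unadjusted p under 0.05. Limma-voom called 2 of them, Gna11 and Gna13. The Gs class stimulates adenylyl cyclase. The larger of the 2 Gnas rows (ENSRNOG00000047374), the gene of the widely expressed Gs alpha subunit, had 7257, 7533 and 8387 normalised reads in AS3h (lowest, median and highest library) and 6695, 7085 and 7917 in NC. Its log2 fold change was 0.10 ± 0.054 (adjusted p = 0.251), with overlapping groups. The smaller Gnas row averaged 743 ± 52.2 in AS3h and 755 ± 110 in NC (SD, n = 6 each), and which transcripts of the locus each row holds was not tested. Gnal, the Golf alpha subunit of olfactory and striatal neurons, averaged 721 ± 84.9 in AS3h and 775 ± 71.9 in NC (adjusted p = 0.477).

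The Gi and Go class inhibits adenylyl cyclase and, through its beta-gamma pairs, opens potassium channels. Gnai2 had the smallest p of the class: its lowest, median and highest values were 6776, 7369.9 and 7643 in AS3h and 6482, 6821 and 7411 in NC, a log2 fold change of 0.08 ± 0.046 (adjusted p = 0.292) with overlapping groups. Gnao1, encoding the Go alpha subunit of neurons, averaged 8925 ± 645 in AS3h and 8398 ± 654 in NC, and the 95% interval of its fold change was 0.973 to 1.16. Gnai1, Gnai3 and Gnaz, the last encoding the pertussis toxin-insensitive Gz, had log2 fold changes of 0.06, 0.08 and -0.0036. The widest interval among these 5 genes, that of Gnai1, ran from 0.904-fold to 1.21-fold. The transducin and gustducin genes Gnat1, Gnat2 and Gnat3, known from photoreceptors and taste cells, were near the floor. Gnat1 had 9 reads over the 6 AS3h libraries and 8 over the 6 NC libraries and was not tested. Gnat2 had 93 reads in AS3h and 54 in NC, and its interval ran from 0.828-fold to 5.88-fold. Gnat3 had 26 reads in AS3h and 28 in NC.

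The Gq class activates phospholipase C beta. Gna11 came closest to the threshold among the alpha subunits. It had 1692, 1977 and 2129 normalised reads in AS3h (lowest, median and highest) and 1557, 1663 and 1840.2 in NC, and 5 of 6 AS3h libraries lay above the highest NC library. Its log2 fold change was 0.20 ± 0.062 (adjusted p = 0.0542). It passed with limma-voom (adjusted p = 0.0256) and when any of 3 libraries was left out, but not without AS3h 4 and AS3h 5 (log2 fold change 0.16, adjusted p = 0.219). The other 3 genes of the class had fold changes of the opposite sign, none past the threshold: Gnaq averaged 2089 ± 192 in AS3h and 2274 ± 276 in NC, Gna14 466 ± 58.9 in AS3h and 545 ± 94.2 in NC, and Gna15, known from blood cells, 99.7 ± 15.6 in AS3h and 125 ± 29.3 in NC. A difference between Gna11 and these genes was not tested.

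The G12 class acts on the actin cytoskeleton through exchange factors for small GTPases. Gna13 had 2341, 2561 and 2739.8 normalised reads in AS3h and 2205, 2272 and 2439 in NC (lowest, median and highest), with 5 of 6 AS3h libraries above every NC library and a log2 fold change of 0.16 ± 0.049 (adjusted p = 0.0556). Limma-voom called it (adjusted p = 0.0356), as did 1 of the 12 omissions. Gna12 averaged 8378 ± 1378 in AS3h and 7493 ± 451 in NC (adjusted p = 0.297), with AS3h 5 at 11014 and the other AS3h libraries at 7177 to 8621.

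Beta subunits form a propeller that binds gamma and anchors effectors. Gnb3, known as the beta subunit of cone photoreceptors and taste cells, had 9.78, 20.4 and 30.9 normalised reads in AS3h (lowest, median and highest) and 4.70, 6.75 and 9.50 in NC. All 6 AS3h libraries lay above all 6 NC libraries, by a small margin between AS3h 3 and NC 4, a separation that 5.05% of all genes tested showed in either direction. Gnb3 rose with a log2 fold change of 1.42 ± 0.30 (adjusted p = 0.0083), a 2.67-fold difference with a 95% interval of 1.73 to 4.13. The gene had 129 reads over the AS3h libraries and 46 over the NC libraries. With the blood and choroid plexus covariates its log2 fold change was 0.69 ± 0.47 (adjusted p = 0.549), and with the choroid plexus markers alone 1.35 ± 0.35 (adjusted p = 0.0376). The part of photoreceptor or pineal cells in this result was not tested. Of 5 photoreceptor and pineal markers tested, 0 passed under limma over all genes, and Aanat alone had an unadjusted p under 0.05, at a mean of 19.1 in AS3h and 9.03 in NC (log2 fold change 1.52 ± 0.57, adjusted p = 0.108). Of the 5, 3 had a log2 fold change above 0, as Gnb3 did, and the median of the 5 was 0.69. The summed level of the 6 with a row was 53.2 to 111 in AS3h and 28.5 to 95.01 in NC, and Sag had 0 reads in AS3h and 9 in NC.

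The other 4 beta subunit genes did not pass. Gnb1 averaged 10092 ± 425 in AS3h and 9686 ± 724 in NC, and Gnb2 6383 ± 504 in AS3h and 6139.8 ± 144 in NC. The 95% intervals of their log2 fold changes were -0.05 to 0.17 and -0.06 to 0.16. Gnb5, the partner of the R7 RGS proteins, averaged 1437 ± 67.9 in AS3h and 1470.3 ± 94.5 in NC, with an interval of 0.902 to 1.06. Gnb4 averaged 279 ± 20.2 in AS3h and 318 ± 40.4 in NC (log2 fold change -0.18 ± 0.095, adjusted p = 0.257).

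Gamma subunits tether the beta-gamma pair to the membrane by a lipid anchor. Of 11 gamma genes tested, 0 passed under limma or limma-voom. An unadjusted p under 0.05 was found for 5 of them, beside 24.9% of all genes tested, and Gng2, which went up, was among the 5. The fold change was below 0 for 10 of the 11, the exception being Gng2, and the median log2 fold change of the 11 was -0.13, beside -0.00428 over all genes. Gng2 averaged 13497 ± 753 in AS3h and 12354 ± 980.2 in NC (log2 fold change 0.13 ± 0.057, adjusted p = 0.175). Gngt2, a cone transducin gamma gene, had the smallest p: its lowest, median and highest values were 4.04, 8.62 and 11.1 in AS3h and 8.53, 14.4 and 22.4 in NC (log2 fold change -0.76 ± 0.30, adjusted p = 0.131), on 50 reads in AS3h and 96 in NC. Gng13, which works in taste and olfactory cells and in retina, averaged 175 ± 38.1 in AS3h and 222 ± 39.1 in NC (log2 fold change -0.35 ± 0.16, adjusted p = 0.176). Gng12 averaged 347 ± 51.7 in AS3h and 405 ± 35.1 in NC (adjusted p = 0.163), with 5 of 6 AS3h libraries below every NC library and AS3h 5 at 443; it was called when AS3h 5 was left out.

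The striatum-enriched gamma gene Gng7 averaged 4538 ± 561 in AS3h and 4900.4 ± 616 in NC, and the neuronal Gng3 4491 ± 565 in AS3h and 4502 ± 549 in NC. Gng10 averaged 3073 ± 159 in AS3h and 3265 ± 152 in NC (adjusted p = 0.273), Gng8 161 ± 40.7 in AS3h and 191 ± 47.5 in NC, Gng4 541 ± 88.8 in AS3h and 625 ± 273 in NC, and Gng11 69.7 ± 54.2 in AS3h and 65.3 ± 13.5 in NC, where the AS3h mean was the higher although the log2 fold change was -0.13. Gngt1, the rod transducin gamma gene, had 7 reads in AS3h and 0 in NC, which allows up to 3, and was not tested. The Gng5 row held few reads, 94 in AS3h and 152 in NC (log2 fold change -0.60 ± 0.27, adjusted p = 0.18). A separate row, LOC108349548, whose description in the deposited tables also names a gamma-5 subunit, held 3499 reads in AS3h and 4622 in NC (log2 fold change -0.29 ± 0.097, adjusted p = 0.0797). No source used here says how reads matching both were counted, so the level of Gng5 is uncertain.

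**Figure D3:**
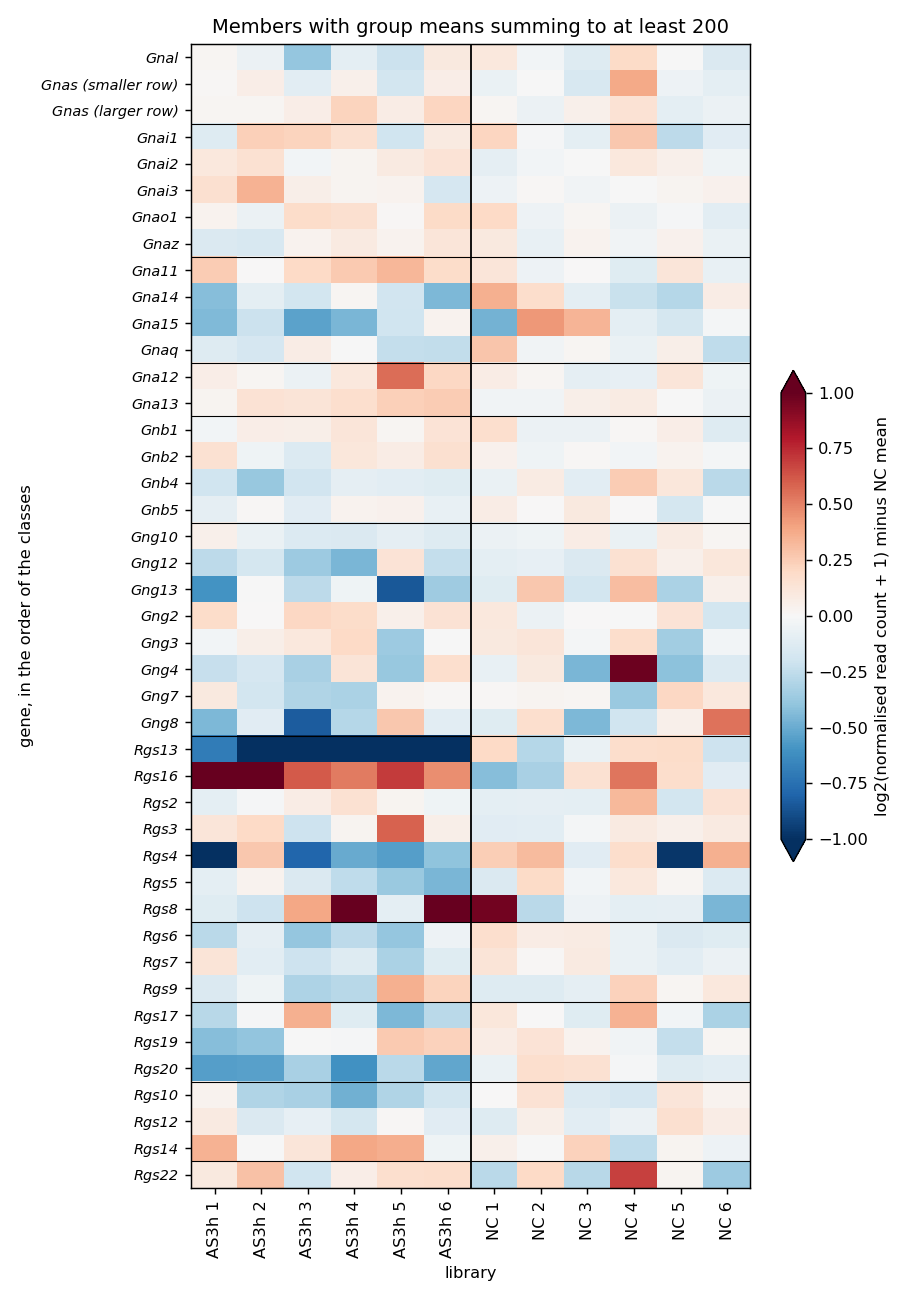
Log2 normalised read count (plus 1) of 43 members in each AS3h library (left of the line) and each NC library (right), minus the mean of the NC libraries; members were shown where the AS3h and NC means summed to at least 200. Rgs13 and Rgs20 are blue and Rgs16 red in all 6 AS3h libraries, while Rgs8 is dark red in AS3h 4, AS3h 6 and NC 1.

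The R4 class holds small RGS proteins, little more than the RGS domain, that act on Gi and Gq alpha subunits. Rgs13, known in mouse and human from germinal centre B cells and mast cells, had 27.2, 45.3 and 105 normalised reads in AS3h (lowest, median and highest) and 139.7, 178 and 195 in NC. All 6 AS3h libraries lay below all 6 NC libraries, and AS3h 1 and AS3h 5, at 105 and 77.8, were the highest of the AS3h group. Rgs13 fell, with a log2 fold change of -1.77 ± 0.27 (adjusted p = 0.00131), 3.41-fold lower in AS3h. The total was 335 reads in AS3h and 1119 in NC. With the blood and choroid plexus covariates the log2 fold change was -2.15 ± 0.47 (adjusted p = 0.107), and over the 12 omissions of 1 library it ranged from -1.98 to -1.60 (adjusted p = 0.000305 to 0.00437).

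Several markers of the cell types Rgs13 is known from were near the floor. Of the mast cell markers, Ms4a2 averaged 3.77 in AS3h and 3.33 in NC, Tpsab1 3.09 in AS3h and 3.92 in NC, and Fcer1a 0.985 in AS3h and 7.34 in NC (adjusted p = 0.183). The mast cell list as a whole summed to 3602 to 5768 in AS3h and 3603 to 5098 in NC, nearly all of it Kit, a receptor gene also expressed in brain. Of the B cell markers in the lymphocyte list, Ms4a1 and Cd79b had 3 and 0 reads in AS3h and 0 and 5 in NC. In bulk tissue, fewer cells of a type and less RNA per cell cannot be told apart.

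Rgs16, whose protein acts on Gi and Gq and whose RNA cycles with the clock in the mouse suprachiasmatic nucleus, had 343, 392 and 665 normalised reads in AS3h and 184, 253 and 360.2 in NC (lowest, median and highest). AS3h 1 and AS3h 2 were far above the rest at 665 and 591, 4 of 6 AS3h libraries lay above every NC library, and AS3h 4 and AS3h 6 fell below NC 4. Rgs16 rose, with a log2 fold change of 0.83 ± 0.19 (adjusted p = 0.0149), 1.77-fold. With the covariates it was at 0.38 ± 0.29 (adjusted p = 0.597), and with the choroid plexus markers alone at 0.86 ± 0.23 (adjusted p = 0.041). Blood transcripts, summed over 5 rows, were 12327 to 39004 in AS3h, highest in AS3h 2, and 9522 to 23217 in NC; with the blood markers alone as covariate Rgs16 was at 0.55 ± 0.22 (adjusted p = 0.191).

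Several R4 genes sit next to each other in the GRCr8 gene order of chromosome 13, and in none of these neighbouring pairs did both genes pass. Rgs13 lies between Rgs2 and Rgs1. Rgs2, an RGS gene selective for Gq that neurons induce with activity, averaged 827 ± 52.2 in AS3h and 822 ± 117 in NC, with a fold change interval of 0.894 to 1.15. Rgs1, an immune cell RGS gene, averaged 17.4 ± 9.54 in AS3h and 24.4 ± 14.6 in NC (adjusted p = 0.587). Rgs16 lies next to Rgs8, a neuronal RGS gene that averaged 1178 ± 622 in AS3h and 825 ± 349 in NC (log2 fold change 0.44 ± 0.34, adjusted p = 0.469). Rgs5, a pericyte gene in brain, lies next to Rgs4 and averaged 999 ± 125 in AS3h and 1157 ± 107 in NC (log2 fold change -0.22 ± 0.085, adjusted p = 0.128). None of 8 pericyte and smooth muscle markers passed under limma, and the median log2 fold change of the 8 was 0.05. Below 0, as Rgs5 was, were 3 of them: Abcc9 at -0.32, Higd1b at -0.29 and Kcnj8 at -0.09. The other 5 were above 0, the smooth muscle genes Acta2 and Tagln furthest at 0.62 and 0.36. Vtn was at 0.17, Pdgfrb at 0.099 and Myh11 at 0.0065. Their summed level was 2794 to 7739 in AS3h, highest in AS3h 2, and 2811 to 4579 in NC. The part of pericytes in the Rgs5 result was not tested.

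Some R4 genes varied widely within a group. Rgs4, an abundant cortical and hippocampal RGS transcript that limits Gq and Gi signalling, ran from 1145 in AS3h 1 to 3187 in AS3h 2 (median 1840.3) and from 1347 in NC 5 to 3379 in NC 6 (median 3062). Its log2 fold change of -0.53 ± 0.27 did not pass (adjusted p = 0.253), and the interval, 0.459 to 1.04-fold, allows a large decrease. For Rgs8 the coefficient of variation was 52.8% in AS3h and 42.2% in NC, and for Rgs4 35.9% in AS3h and 27.8% in NC, beside medians over the members of 12.5% in AS3h and 12.1% in NC. Rgs8 was above 1500 in AS3h 4, AS3h 6 and NC 1, at 2034, 1892 and 1522, and at 568 to 1018 in the other 9 libraries. Rgs3 averaged 949 ± 183 in AS3h and 856 ± 54.0 in NC (adjusted p = 0.465). Rgs18, a platelet gene, had 13 reads in AS3h and 12 in NC.

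The RZ class acts on Gz and the Gi alpha subunits. Rgs20, a brain-enriched RGS gene whose protein is selective for Gz, had 516, 541 and 649 normalised reads in AS3h (lowest, median and highest) and 714, 762 and 881 in NC. All 6 AS3h libraries lay below all 6 NC libraries. Rgs20 fell, with a log2 fold change of -0.47 ± 0.079 (adjusted p = 0.00241), 1.38-fold lower in AS3h with a 95% interval of 0.643 to 0.812 for AS3h over NC. With the blood and choroid plexus covariates the log2 fold change was -0.46 ± 0.13 (adjusted p = 0.192), and with the blood markers alone -0.39 ± 0.097 (adjusted p = 0.0505). Gnaz, which encodes the alpha subunit it acts on, had a fold change interval of 0.915 to 1.09. The class members Rgs17 and Rgs19 averaged 617 ± 127 and 439 ± 87.7 in AS3h and 670 ± 104 and 451 ± 38.7 in NC (adjusted p = 0.578 and 0.818).

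The R7 class pairs with Gnb5 and speeds Gi and Go signalling at neuronal synapses. None of its 3 members with a row passed under limma, of which 1 had an unadjusted p under 0.05, and limma-voom called that gene, Rgs6. Rgs6 had 762, 828 and 959 normalised reads in AS3h and 903, 998 and 1121 in NC (lowest, median and highest), with 4 of 6 AS3h libraries below every NC library and a log2 fold change of -0.24 ± 0.077 (adjusted p = 0.0616; 0.0344 with limma-voom). Rgs7 averaged 2421 ± 252 in AS3h and 2634 ± 173 in NC (log2 fold change -0.13 ± 0.067, adjusted p = 0.267). Rgs9, known for its striatal form and its photoreceptor form, averaged 201 ± 38.8 in AS3h and 204 ± 21.3 in NC. Among its anchors, Gpr158, an orphan receptor that binds R7 complexes, averaged 2309.6 ± 255 in AS3h and 2285 ± 418 in NC. Gpr179 and Rgs9bp had 42 and 8 reads in AS3h and 39 and 10 in NC.

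The R12 class couples RGS activity to other signalling domains. Rgs10, a short member abundant in microglia, had 1405, 1593 and 2010.04 normalised reads in AS3h and 1740.4, 1987 and 2169 in NC (lowest, median and highest). Of the 6 AS3h libraries, 5 lay below every NC library, the exception being AS3h 1. The log2 fold change was -0.26 ± 0.081 (adjusted p = 0.0593; 0.0292 with limma-voom). Of 6 microglial markers 1 fell, Cx3cr1, 0 rose and 5 did not pass; the median log2 fold change of the list was -0.31 and its summed level was 6568 to 7907 in AS3h and 7082 to 8713 in NC. The part of microglia in the Rgs10 result was not tested; with the blood and choroid plexus covariates Rgs10 was at -0.08 ± 0.13 (adjusted p = 0.837).

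Rgs14, which marks hippocampal area CA2 and limits plasticity there in mouse, averaged 3985 ± 532 in AS3h and 3467 ± 375 in NC (log2 fold change 0.20 ± 0.09, adjusted p = 0.187). Of 6 other CA2 markers 1 fell, Pcp4, 0 rose and 5 did not pass, and their summed level was 7059 to 8254 in AS3h and 7298 to 8630 in NC. Rgs12 averaged 1501 ± 107 in AS3h and 1575 ± 124 in NC (adjusted p = 0.547). Rgs22, a large testis-expressed RGS gene, averaged 298 ± 32.9 in AS3h and 286 ± 87.1 in NC (lowest, median and highest 241, 303 and 339 in AS3h and 215, 256 and 445 in NC; adjusted p = 0.746).

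Outside the members, genes that act directly before or after the G protein cycle were counted in 7 lists of receptor kinases and arrestins, G protein activators and chaperones, R7 anchors, other proteins with an RGS box, and 3 groups of effectors. There were 49 such genes in the test, of which 2 rose and 6 fell while 41 stayed short of the threshold, so 16.3% were called, beside 9.26% of all genes tested. The lists were chosen with earlier results of these data known, so these shares do not test for an excess. The median log2 fold change of the 49 was -0.02. The AS3h and NC values did not overlap for 3 of the 49, beside 5.05% of all genes tested. Fewer passed without NC 2 (4 genes), AS3h 4 (4), NC 3 (5), AS3h 6 (5) or AS3h 4 and AS3h 5 together (5), and 0 passed with the blood and choroid plexus covariates. Under that fit the log2 fold changes of Kcnj3, Adcy8, Pdcl, Gpsm1 and Plcb2 were -0.52, -1.49, -0.44, 0.44 and -0.50, with larger standard errors, while those of Ccdc88a, Snx14 and Adcy6 were nearer 0, at -0.17, -0.13 and 0.14. With the choroid plexus markers alone 5 passed, with the blood markers alone 3, and with the haemoglobin rows and Ttr 2.

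Among effectors, Kcnj3, encoding the GIRK1 subunit of the potassium channel that beta-gamma pairs open, fell with a log2 fold change of -0.61 ± 0.078 (adjusted p = 0.000389). Its lowest, median and highest values were 1232, 1323 and 1470.4 in AS3h and 1721, 2045 and 2430.3 in NC, so the groups did not overlap. The other GIRK subunit genes did not pass: Kcnj6, Kcnj9 and Kcnj5 had log2 fold changes of 0.09, -0.23 and -0.04. Adcy8, a calcium-stimulated adenylyl cyclase of hippocampal neurons, had 165, 222 and 239 normalised reads in AS3h and 264, 543 and 657 in NC and fell without overlap (log2 fold change -1.19 ± 0.19, adjusted p = 0.00177). Adcy6, a Gi-inhibited cyclase, had 1539, 1684 and 1988 in AS3h and 1396, 1437 and 1619.5 in NC, and rose (log2 fold change 0.23 ± 0.069, adjusted p = 0.0467); only 3 of the 12 fits without 1 library called it. The remaining 8 cyclase genes did not pass. Of the phospholipase C beta genes, Plcb2, the low-level form known from blood cells and taste cells, fell (48.0 in AS3h against 76.3 in NC as medians, log2 fold change -0.59 ± 0.17, adjusted p = 0.0394), and passed in 3 of the 12 omissions. Plcb1, the main hippocampal Gq effector, had a log2 fold change of 0.0021 ± 0.083.

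**Figure D4:**
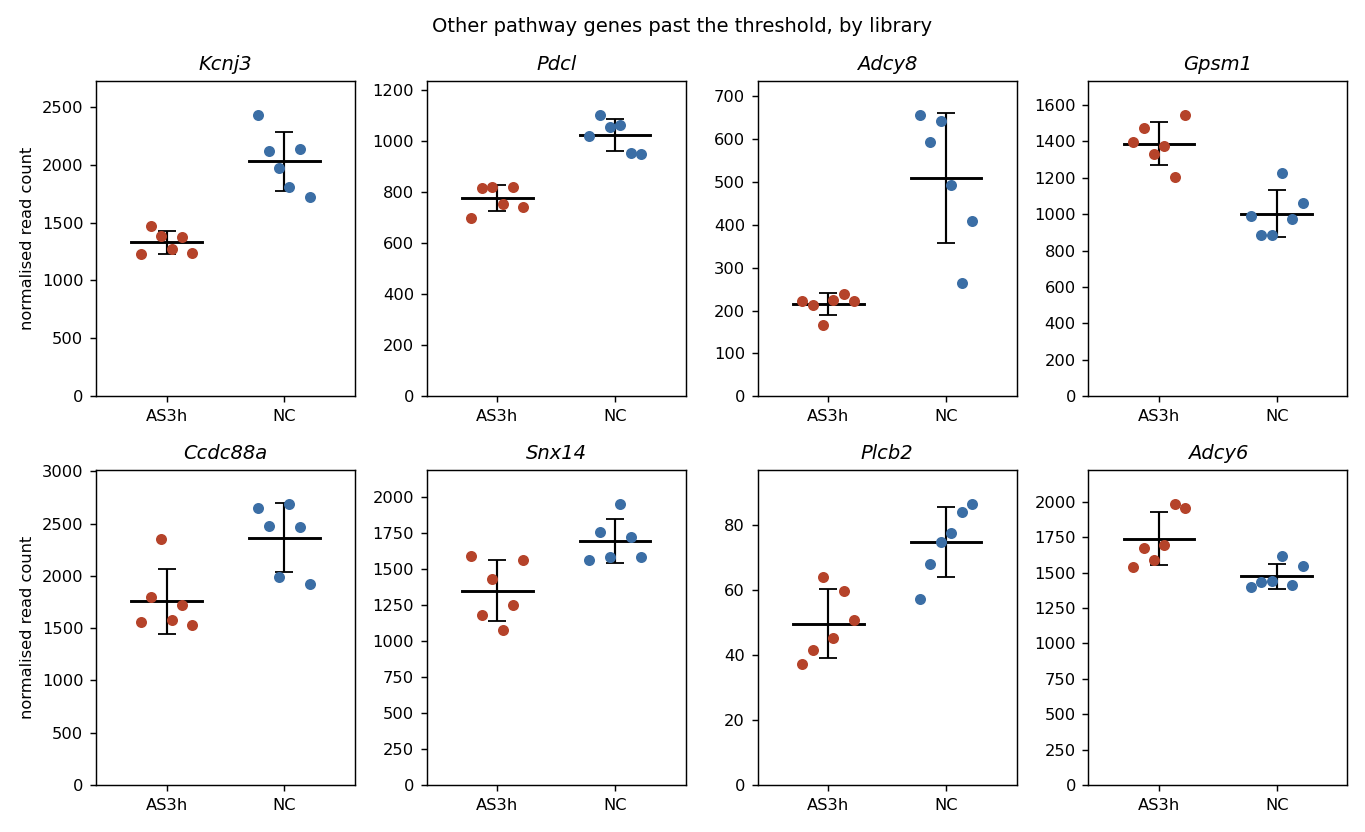
Normalised read counts (y axis, linear from 0) of the 8 other pathway genes past the threshold, in AS3h libraries (red, left) and NC libraries (blue, right), with the mean as a line and the SD as a bar. Kcnj3, Pdcl and Adcy8 are lower in all 6 AS3h libraries than in any NC library, and the groups overlap for the other 5 genes.

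Among proteins that handle the subunits, Pdcl, a phosducin-like co-chaperone needed to assemble beta-gamma pairs, had 700.5, 786 and 821 normalised reads in AS3h and 949, 1038 and 1104 in NC and fell without overlap (log2 fold change -0.40 ± 0.062, adjusted p = 0.00133). Gpsm1, an activator of G protein signalling that binds Gi alpha subunits in their GDP form, had 1202, 1384 and 1546 in AS3h and 886, 981 and 1224 in NC and rose (log2 fold change 0.47 ± 0.083, adjusted p = 0.00305). Ccdc88a, encoding the Gi-binding protein girdin, fell (medians 1649.98 in AS3h and 2472 in NC, log2 fold change -0.43 ± 0.11, adjusted p = 0.0251), and passed in 6 of the 12 omissions. Of the proteins with an RGS box outside the numbered family, the sorting nexin Snx14 fell (medians 1339.8 in AS3h and 1650.5 in NC, log2 fold change -0.34 ± 0.095, adjusted p = 0.0376) and passed in 5 of the 12 omissions. Without AS3h 4 and AS3h 5, Ccdc88a, Snx14, Plcb2 and Adcy6 did not pass (adjusted p = 0.0807 to 0.164); their log2 fold changes were then -0.40, -0.24, -0.64 and 0.19. With no filter on low values Adcy6 and Snx14 did not pass (adjusted p = 0.062 and 0.0524), nor did Adcy6 with total-read factors (adjusted p = 0.0615). Of 8 receptor kinases and arrestins 0 passed under limma over all genes, 2 having an unadjusted p under 0.05; the smallest p was that of Arrb2, which encodes beta-arrestin 2 (log2 fold change 0.18 ± 0.055, adjusted p = 0.0542).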

How the data were processed

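The authors deposited 1 table per library with 23760 genes on a log2 scale. These deposited log2 values equal log2(1 + normalised reads), and undoing this with a single factor for each library returned whole reads for 100% of values (within 0.02 read). Libraries were strand-specific, per the labels' protocols. Per the submitters' processing notes, FastQC 0.11.5, STAR and build mRatBN7.2 were used; the counting program, strand setting, annotation and source of the factors: not given in the sources used here. Overlapping or near-identical genes can share reads.

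Limma 3.58.1 in R 4.3.3 was fitted to the deposited log2 values of all 12 libraries, with group as the only term, a robust empirical Bayes step and a trend on mean level, for genes with a normalised value of at least 1 in at least 6 libraries. P-values were adjusted by Benjamini-Hochberg over 19050 genes at 0.05. Members were set by gene symbol alone, but this family and the gene lists were chosen with earlier results of these data known. The share of members called therefore does not test for an excess. By rule, the lowest, median and highest values are given for members past the threshold and for the smallest p of each class, group means or reads for the other members; pathway genes are named where they passed, or had the smallest p of a list with none past it. Rgs4, Rgs8 and the other GIRK, Plcb1 and R7 anchor genes were added after their values were seen.

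Alternatives were other library factors, filters and pseudocount, limma-voom with sample weights on the recovered reads, a replicate block, leaving out libraries, and blood and choroid plexus covariates (alone, or as haemoglobin and Ttr, after seeing the data). No pair of replicate libraries agreed within sampling noise (smallest chi-square per degree of freedom 11.9). The AS3h against NC fit, checked on simulated counts of 19050 genes, recovered 69% of those changed 1.5-fold and 94% of those changed 2-fold (mean reads of 100 or more); 7.39% of its 176 calls were unchanged genes. Genes with fewer reads, Gnb3 among them, were not simulated with a change. The simulated spread of each gene came from the NC libraries alone, and genes were drawn independently. The simulation therefore held no shared variation in blood or choroid plexus transcripts. Intervals cover the spread between libraries at these depths. RefSeq promoters matched 42 of 52 member symbols. Plots used matplotlib 3.10.9 (Python 3.11.15).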

Additional observations from a re-analysis of the deposited data

Results flagged for a closer look

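In 102 groups of 6 libraries (51 members, AS3h and NC), 5 libraries stood apart from the other 5 of their group by more than Dixon's 95% critical ratio, and chance alone flags about 5% of groups. Gng11 had 178 normalised reads in AS3h 2, against 31.3 to 59.9 in the other AS3h libraries. Gnat2 had 36.6 in AS3h 2, against 4.04 to 15.7 in the other AS3h libraries. Rgs8 had 1522 in NC 1, against 568 to 753 in the other NC libraries. Gng4 had 1161 in NC 4, against 428 to 628 in the other NC libraries. The smaller Gnas row had 973 in NC 4, against 669.9 to 748 in the other NC libraries. None of these 5 genes passed the threshold under limma in AS3h against NC.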

How the results depend on the processing

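Rgs13, Rgs20, Gnb3 and Rgs16 each passed in all 12 omissions of 1 library. Of the 12 other alternatives Rgs13 passed in 11, Rgs20 and Gnb3 in 9 and Rgs16 in 8; the exceptions were the blood and choroid plexus covariates for all 4, the blood covariate alone and the haemoglobin and Ttr covariates for all but Rgs13, and the replicate block for Rgs16. The count of members past the threshold was 4 to 6 over the 12 omissions, 8 with limma-voom (4 higher and 4 lower) 0 with both covariates (0 higher and 0 lower) and 1 with the blood covariate alone or with haemoglobin and Ttr (0 higher and 1 lower in each), against 4 (2 and 2). With a minimum mean of 10 it was 6, of which 4 were higher. The counts over all genes with limma-voom and with that minimum mean are not given here. Neither member count therefore has a background share beside it. Over all genes 1030 to 1788 passed in the 12 omissions, 860 without AS3h 4 and AS3h 5 25 with both covariates, 469 with blood alone, 1140 with choroid plexus alone and 191 with haemoglobin and Ttr, against 1764. Of the pathway genes 4 to 10 passed in the omissions, 5 without AS3h 4 and AS3h 5 0 with both covariates, 3 with blood alone, 5 with choroid plexus alone and 2 with haemoglobin and Ttr, against 8; the fold changes behind the 0 are given with those genes. The fits with 1 covariate, and with haemoglobin and Ttr, were chosen after seeing the data. With both covariates the signs of Gnai2 (-0.000404) and Rgs22 (-0.11; -0.19 with haemoglobin and Ttr), neither of them past the threshold, turned; the cause was not tested. The covariate means overlapped between the groups (blood 9.32 to 11.1 in AS3h and 8.67 to 10.2 in NC, choroid plexus 4.16 to 10.8 in AS3h and 4.02 to 5.95 in NC, log2). AS3h and NC libraries share only a number: the correlation of their deviations from the group means was -0.0618 to 0.0706 over the 6 pairs, and in 1 of 6 was the same number the best match. With the replicate block 4 members passed, 1 of them higher, with Rgs10 (adjusted p = 0.0494) in place of Rgs16 (adjusted p = 0.0614), and 1296 genes; Adcy6, Ccdc88a and Snx14 did not pass (adjusted p = 0.0569, 0.0579 and 0.0975). Depth limits Gnb3, Gngt2, Gng5, Rgs1 and the transducin genes, which rest on few reads.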

Other observations

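Over the 42 member symbols with a promoter entry, the E-box was found in 3 (Gnai1, Rgs19 and Rgs7), the AP-1 site in 4 (Gnb2, Gng12, Rgs12 and Rgs17), the cAMP response element in 1 (Gnao1) and the glucocorticoid response element in 0. None of these 8 genes passed the threshold under limma in AS3h against NC. The GC box was found in 23 of the 42 and the CCAAT box in 10.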
